A study of Yarrowia lipolytica with 9 samples.

Results

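Yl_5_3, a strain of the oleaginous yeast Yarrowia lipolytica with a mutation in a single extra cassette of Yl-SPT15, was compared with the control strain Yl_5_1, whose extra cassettes were all wild type. The comparison took every deposited feature with at least 10 counts in at least 3 of the 6 libraries of the 2 strains, which gave 6013 of 6145 features. Both strains, and the second mutant Yl_5_2 used below for reference, descended from the auxotrophic laboratory strain ATCC 201249, carried the carotene genes crtE, crtB, crtI and crtY at the ribosomal DNA, and carried 5 extra Yl-SPT15 cassettes at the GUT2 site, which was partly disrupted. In Yl_5_3 the mutation lay in the cassette driven by the YAT1 promoter, while Yl_5_2 had mutations in more than 1 cassette. Each mutant strain was a single colony chosen by its colour, Yl_5_3 for being pale, so a strain and its colony cannot be told apart. All cultures grew for 96 h at 28 °C and 250 rpm in synthetic medium without uracil and leucine. There were 3 libraries per strain, and since the labels do not say that they came from separate cultures, p-values measure only the spread between these libraries, which may be technical.

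SPT15 encodes the TATA-binding protein in Saccharomyces cerevisiae, a subunit of the general factor TFIID and also part of the factors that start transcription by RNA polymerases I and III. The protein binds and bends promoter DNA near the start of transcription, and through TFIID or SAGA it helps to place RNA polymerase II at protein-coding genes. Because most promoters use it, mutated copies have been used in budding yeast to shift the expression of many genes at the same time. In the sequence given for the mutated cassette of Yl_5_3, 1 base differed from the wild type, C582A, which changes 1 of the 227 residues, F194L, with positions counted from 1 at the start codon and at the first residue. The supplement heads that sequence with the name Yl_5_2 while the main text places F194L in Yl_5_3, and the latter is followed here.

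Features are named by the locus tag that the RefSeq annotation of strain W29 (assembly ASM176148v1) gives to their accession, or by the accession itself. Neither the annotation used here nor the files give a product, so no function is stated for any of them. Levels are given as CPM, the counts scaled to a common library size with TMM factors, with the standard deviation (SD) over 3 libraries. Changes are log2 fold changes with their standard error, and "edgeR adjusted p" stands for the p of the quasi-likelihood F test of edgeR, adjusted by the method of Benjamini and Hochberg across the 6037 features tested. Libraries of Yl_5_1 and Yl_5_3 held 17771507 to 23288547 counts, and within a strain every pair of libraries differed by more than counting noise, with a chi-square per degree of freedom of 3.37 to 4.12 in Yl_5_3 and of 6.28 to 12.4 in Yl_5_1. Counts are relative to the library, so the amount of RNA per cell was not measured.

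The feature of Yl-SPT15 itself could not be identified from the accessions. Its coding sequence has 684 bases, and 14 features have that length, with log2 fold changes from -0.65 to 0.69 in Yl_5_3 and none past the stringent condition defined below. The paper's identifier places the gene on chromosome B, where the features of this length were YALI1_B16922g and YALI1_B29977g. Another 1 of the 14 had no chromosome in the reference, so Yl-SPT15 need not be either of these. YALI1_B29977g had 182, 172 and 168 CPM in the control and 280, 279 and 284 CPM in Yl_5_3 (log2 fold change 0.69 ± 0.04, edgeR adjusted p = 5.72e-10). YALI1_B16922g had 63.3, 60.4 and 53.2 CPM against 68.6, 75.3 and 80.1 CPM (0.34 ± 0.06, edgeR adjusted p = 0.000357). Both rose, and the libraries of the strains did not overlap for either of them. Both also rose in Yl_5_2, YALI1_B29977g by 0.80 (edgeR adjusted p = 1.19e-10) and YALI1_B16922g by 0.72 (edgeR adjusted p = 1.32e-07) on the log2 scale. The paper describes Yl-SPT15 expression by Q-PCR as nearly equal in the strains it tested. Cassettes add copies in every strain, so neither value checks the labels.

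Most features differed between the strains, and most of these by less than 1.5-fold. At an edgeR adjusted p under 0.05, 3335 of the 6013 features were called, beside 55.3% of all features tested: 1542 rose, beside 25.6%, and 1793 fell, beside 29.7%. Of the called features, 846 rises and 565 falls were smaller than 1.2-fold, and a further 506 rises and 745 falls lay between 1.2-fold and 1.5-fold. Above that size falls outnumbered rises in every class: 284 against 129 from 1.5-fold to 2-fold, 161 against 53 from 2-fold to 4-fold, 32 against 5 from 4-fold to 8-fold and 6 against 3 above 8-fold. The median change over all 6013 features was close to 0, with a median standard error of 0.06.

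Under the stringent condition, an edgeR adjusted p under 0.001 and more than 2-fold, 240 features were called, beside 3.98% of those tested. Of these, 189 fell, beside 3.13%, and 51 rose, beside 0.845%, so that 78.8% fell. All 240 had no overlap between the 3 libraries of Yl_5_3 and the 3 of the control, as had 63.3% of all features tested. How rises and falls balanced moved with the scaling between libraries. Of the features called at an adjusted p under 0.05, 53.8% fell with TMM factors, 48.1% with median-of-ratios size factors and 68.2% with total counts alone. There were 28 stringent rises in place of 51 with limma on log2(FPKM + 1), and 32 where 50 counts were required in every library. The share of stringent features that fell was 76.8% with median-of-ratios size factors and 82.7% with total counts.

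**Figure D1:**
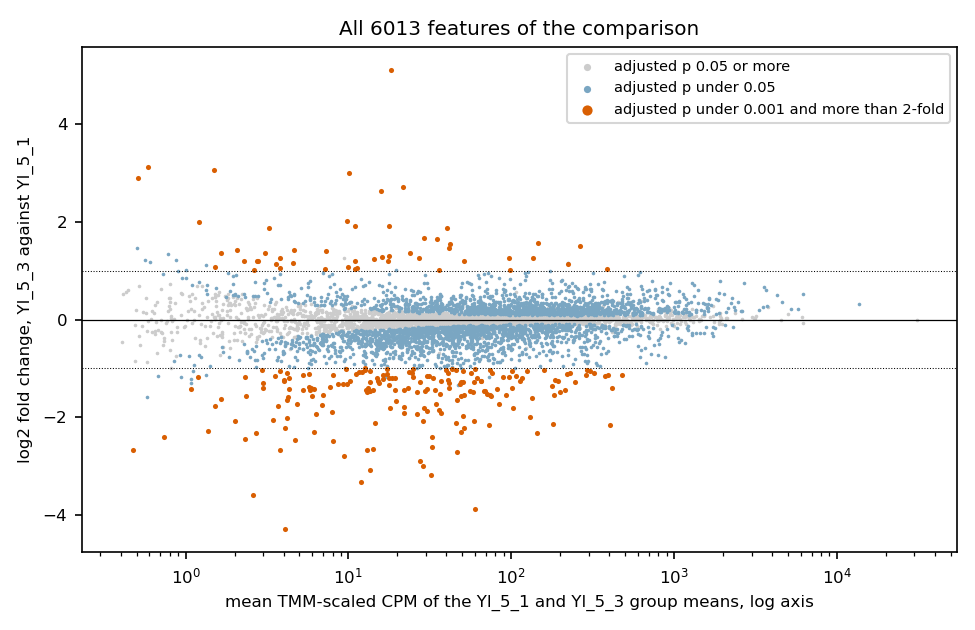
Log2 fold change of Yl_5_3 against Yl_5_1 (vertical axis) against the mean level of the 2 strains in TMM-scaled CPM (horizontal axis, logarithmic) for the 6013 features. Each point is a feature, the dotted lines mark 2-fold, and the 240 stringent features in orange lie mostly below the lower line, 189 of them as falls and 51 as rises.

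The features described next are the 12 largest rises and the 12 largest falls with a locus tag. They were taken from stringent features of at least 10 CPM in a strain and with no overlap between Yl_5_3 and the control. All 240 stringent features met the last condition, so non-overlap of a named feature is not a separate result. Less abundant features are given further below. The largest rise was that of YALI1_B26033g, which was close to silent in the control. It had 0.937, 1.28 and 0.851 CPM in the 3 control libraries, 1.49, 1.54 and 1.48 CPM in Yl_5_2, and 31.3, 39.1 and 36.0 CPM in Yl_5_3. Every library of Yl_5_3 thus stood far above every other library of the series. Its level went from 1.02 ± 0.225 CPM (SD, n = 3) to 35.4 ± 3.92 CPM (SD, n = 3), which was 34.6-fold higher (log2 fold change 5.11 ± 0.14, edgeR adjusted p = 3.14e-14).

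Among the rises with a locus tag and at least 10 CPM in a strain, YALI1_F18740g and YALI1_C10762g followed, both also low in the control and with no overlap between the strains. YALI1_F18740g had 2.30, 2.23 and 2.21 CPM in the control and 15.6, 20.3 and 18.2 CPM in Yl_5_3 (log2 fold change 3.0 ± 0.14, edgeR adjusted p = 1.32e-11). YALI1_C10762g had 5.58, 5.48 and 6.01 CPM in the control and 34.8, 43.1 and 34.4 CPM in Yl_5_3, 6.61-fold higher (edgeR adjusted p = 1.44e-11). Control libraries of these features had an SD of 0.0465 and 0.284 CPM, and those of Yl_5_3 an SD of 2.36 and 4.93 CPM. Counting noise in CPM grows with the level, so these values do not show that Yl_5_3 was more variable.

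YALI1_B09117g rose 6.22-fold, from 4.43, 3.99 and 4.76 CPM to 25.2, 32.7 and 23.8 CPM. YALI1_C05857g rose 4.06-fold, from 4.30, 4.36 and 3.01 CPM to 16.9, 19.0 and 11.6 CPM. YALI1_A12540g rose 3.75-fold, from 4.64, 4.36 and 4.93 CPM to 15.5, 19.1 and 17.6 CPM. In all of these the second library of Yl_5_3 was the highest. As the choice required, the lowest library of Yl_5_3 stood above the highest of the control. The same library was the highest in YALI1_F14136g, YALI1_D18089g, YALI1_E34586g and YALI1_E22884g, whose log2 fold changes were 1.66, 1.56, 1.55 and 1.5, and leaving it out left all of these calls in place.

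Among the more abundant rises, YALI1_E22884g went from 145, 148 and 118 CPM to 364, 471 and 332 CPM (1.5 ± 0.16, edgeR adjusted p = 0.000196). YALI1_D18089g went from 76.4, 72.4 and 72.1 CPM to 206, 257 and 189 CPM (1.56 ± 0.14, edgeR adjusted p = 4.85e-05). YALI1_C07360g went from 23.6, 20.5 and 22.1 CPM to 64.4, 58.9 and 60.4 CPM (1.47 ± 0.06, edgeR adjusted p = 2.60e-12). The last of these had the smallest change of the 12 largest rises and the smallest error. YALI1_E36494g, from 17.0 ± 3.95 CPM to 63.5 ± 6.25 CPM (SD, n = 3 each), was near the edge of the stringent condition, with an edgeR adjusted p of 0.000848, and left it without any 1 of the 6 libraries (edgeR adjusted p = 0.00220 to 0.00487).

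The stringent falls had higher control levels than the stringent rises. A difference in this direction is partly built into the selection, since features picked as falls are high in the control and those picked as rises are low. The limit of 10 CPM in a strain also makes the largest falls start at 10 CPM or more, and not the largest rises. Over the 189 stringent falls the median of the control means was 34.6 CPM and that of Yl_5_3 was 11.3 CPM, while over the 51 stringent rises the median went from 5.69 to 17.4 CPM. YALI1_E11402g fell most among the features with at least 10 CPM in a strain. It had 124, 109 and 105 CPM in the control, 118, 118 and 138 CPM in Yl_5_2, and 6.78, 7.98 and 8.16 CPM in Yl_5_3. The 6 libraries with wild-type cassettes or with the other mutations were thus all above 100 CPM and those of Yl_5_3 all below 10. The fall was 14.8-fold (log2 fold change -3.89 ± 0.10, edgeR adjusted p = 3.03e-12).

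YALI1_E26094g fell 9.97-fold, from 21.4, 19.9 and 24 CPM to 2.02, 2.45 and 2.01 CPM. YALI1_F07630g fell 9.13-fold, from 63.3, 52.2 and 57.8 CPM to 7.55, 5.19 and 6.38 CPM. YALI1_A08546g fell 7.95-fold, from 58.5, 46.6 and 47.6 CPM to 7.05, 6.30 and 5.91 CPM. The gap between the strains was many times the spread within either: for YALI1_A08546g the SD was 6.62 CPM in the control and 0.580 CPM in Yl_5_3, for a difference in means from 50.9 to 6.42 CPM.

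YALI1_D11159g fell 7.39-fold, from 51.0, 47.6 and 47.6 CPM to 6.73, 6.11 and 7.03 CPM (edgeR adjusted p = 2.65e-13). YALI1_D29626g fell 6.57-fold, from 88.1, 83.7 and 71.8 CPM to 12, 13 and 12.1 CPM (edgeR adjusted p = 1.60e-10). YALI1_F33973g fell 6.92-fold, from 18.1, 15.8 and 15.5 CPM to 1.64, 3.70 and 1.60 CPM (edgeR adjusted p = 4.26e-07). In YALI1_F33973g the second library of Yl_5_3 was more than 2-fold above the other two, and all 3 were below the control. The remaining members of the 12 largest falls were YALI1_B28430g, YALI1_A16292g, YALI1_A21372g, YALI1_E41251g and YALI1_A00148g. They had log2 fold changes of -3.09, -2.67, -2.65, -2.60 and -2.48. Each had 3 of 3 libraries below every control library, as the choice required.

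Some features have an accession without a locus tag in the annotation used here. With the same limit of 10 CPM, the largest rises among them were XM_501880.1, with 7.20, 7.23 and 7.71 CPM in the control and 28.7, 25.5 and 29.6 CPM in Yl_5_3 (1.92 ± 0.09), and XM_502228.1, with 16.5, 15.6 and 18.5 CPM against 47.2, 55.5 and 55.6 CPM (1.65 ± 0.08). The largest falls with that limit were XM_502742.1, with 58.5, 58.6 and 59.4 CPM against 14.9, 15.3 and 17.0 CPM (-1.90 ± 0.08), and XM_502694.1, with 74.0, 67.2 and 70.9 CPM against 22.1, 23.2 and 22.2 CPM (-1.65 ± 0.08). Their edgeR adjusted p lay between 4.27e-12 and 6.84e-10. In all 4 the strains did not overlap, which was again a condition of the choice.

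**Figure D2:**
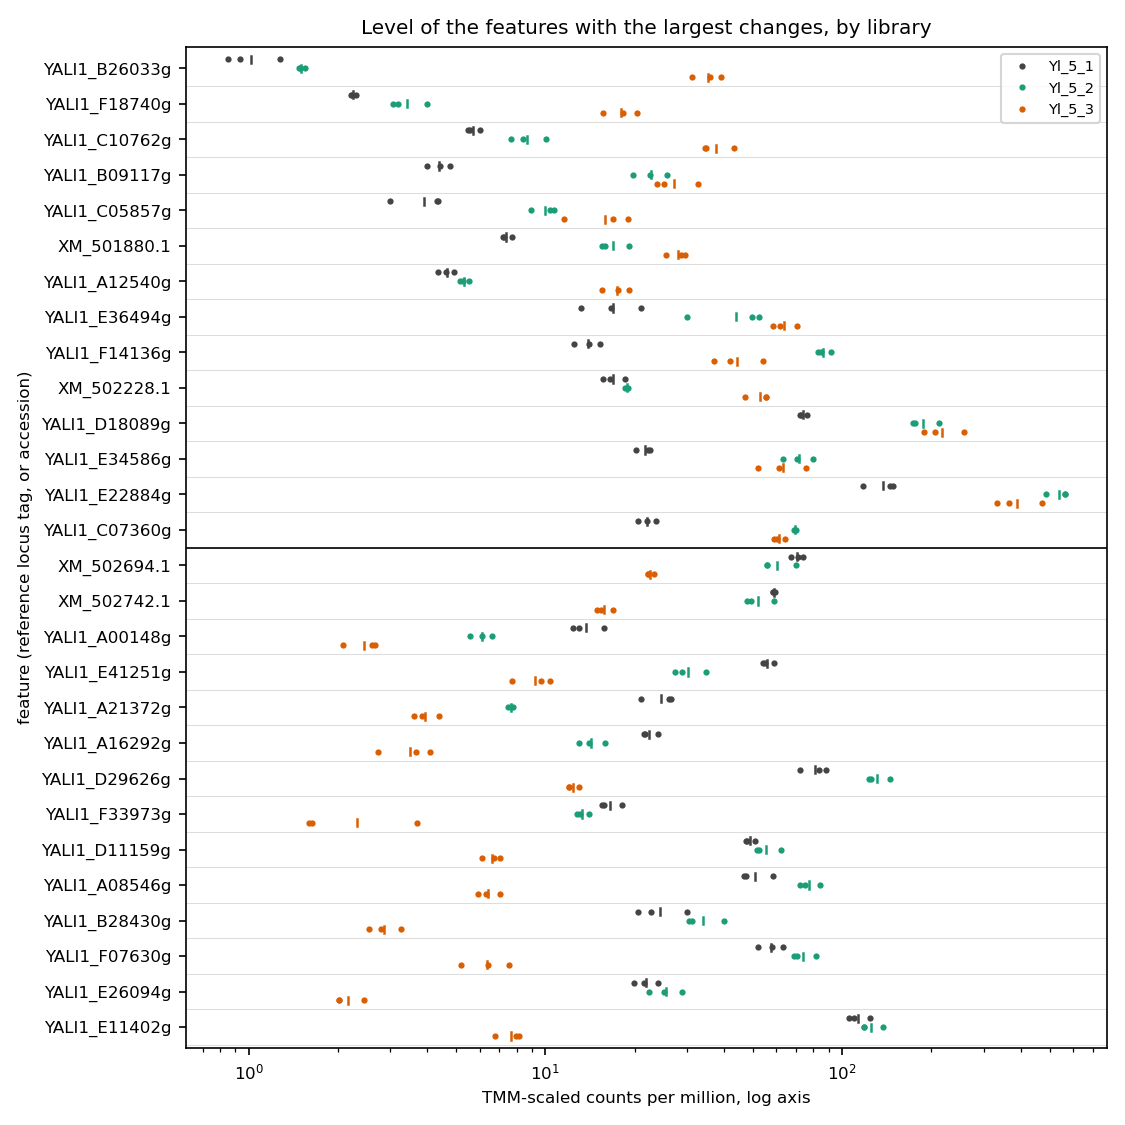
TMM-scaled CPM (horizontal axis, logarithmic) of the 14 rises, above the line, and the 14 falls, below it, that were chosen by size of change. Points are libraries, 3 per strain, and short bars are strain means. YALI1_B26033g goes from about 1 CPM in the control to 35.4 CPM in Yl_5_3, and YALI1_E11402g from 113 to 7.64 CPM. For each of the falls Yl_5_2 lies nearer to the control than Yl_5_3 does, with log2 fold changes against the control from -1.69 to 0.68.

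The most abundant messages of the cell changed little. YALI1_C12642g, which had the most reads in the control, had 31116, 31051 and 31610 CPM there and 31206, 30641 and 31578 CPM in Yl_5_3, a log2 fold change of -0.01 ± 0.05 (edgeR adjusted p = 0.930). YALI1_D16249g rose from 12340, 12101 and 12166 CPM to 15030, 15070 and 15684 CPM, a log2 fold change of 0.32 ± 0.05 (edgeR adjusted p = 2.80e-05). Strains overlapped in the first and not in the second. YALI1_D26051g rose by 0.21 ± 0.05 on the log2 scale (edgeR adjusted p = 0.00292), and YALI1_C08262g (-0.07 ± 0.04) and YALI1_E16255g (0.05 ± 0.05) were not called.

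Of the stringent features, the most abundant in the control were falls. They are named here after their values were seen. YALI1_B28454g had 712, 667 and 618 CPM in the control and 148, 145 and 151 CPM in Yl_5_3 (log2 fold change -2.17 ± 0.05, edgeR adjusted p = 2.53e-14). YALI1_F12917g had 624, 601 and 592 CPM against 230, 221 and 237 CPM (-1.40 ± 0.05, edgeR adjusted p = 1.94e-12). YALI1_D28273g had 647, 652 and 673 CPM against 291, 307 and 300 CPM (-1.13 ± 0.05, edgeR adjusted p = 1.32e-11). Spread within each strain was a small part of these differences. In this order the SD was 2.66, 7.69 and 8.28 CPM in Yl_5_3 and 47.1, 16.9 and 13.7 CPM in the control. The most abundant stringent rise, YALI1_C04720g, went from 201, 270 and 294 CPM to 570, 507 and 478 CPM (1.03 ± 0.15, edgeR adjusted p = 0.000913). Relative to their mean its control libraries differed from each other more than those of the falls did, with an SD of 48.4 CPM around 255 CPM.

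To compare these changes with those of the other mutant, Yl_5_3 was also tested directly against Yl_5_2 in the same fit. The stringent features had been selected with the Yl_5_3 libraries, which enter this test too, so the counts are read with that in mind, beside 67.4% of all features tested that were called, 36.5% lower in Yl_5_3 than in Yl_5_2 and 30.9% higher. Of the 189 stringent falls, 181 were also lower than Yl_5_2 at an edgeR adjusted p under 0.05, 1 was higher and 7 were not called. Of the 51 stringent rises, 25 were higher than Yl_5_2, 8 were lower and 18 were not called. The stringent falls were thus mostly below both other strains.

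Values against the shared control show the same features side by side. The 189 stringent falls had a median log2 fold change of -1.42 in Yl_5_3 and of 0.00 in Yl_5_2, where 57 of them rose, 58 fell and 74 were not called. Their shares called in Yl_5_2, 30.2% as rises and 30.7% as falls, were near those over all features tested, 27.4% and 30% (57.4% in either direction). The 51 stringent rises had a median of 1.30 in Yl_5_3 and of 1.10 in Yl_5_2, where 41 rose (80.4%, beside the same 27.4%), 0 fell and 10 were not called. Both comparisons use the 3 control libraries, so these values are not independent of each other. Over all 6013 features the medians were -0.00 and -0.01.

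All 12 of the largest falls were lower in Yl_5_3 than in Yl_5_2, beside 36.5% of all features tested. For YALI1_E11402g the direct difference was -4.03 ± 0.10 on the log2 scale (edgeR adjusted p = 1.21e-12). YALI1_A21372g, which had 7.79, 7.51 and 7.65 CPM in Yl_5_2 against 26.5, 26.1 and 21.0 CPM in the control and 4.37, 3.61 and 3.84 CPM in Yl_5_3, showed the smallest direct difference of these, -0.96 ± 0.13 (edgeR adjusted p = 6.02e-06). It fell in both mutant strains, and further in Yl_5_3.

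Of the 12 largest rises, 8 differed from Yl_5_2, beside 67.4% of all features tested, and not all in the same direction. YALI1_B26033g was higher in Yl_5_3 by 4.55 ± 0.13 (edgeR adjusted p = 3.04e-14), YALI1_F18740g by 2.40 ± 0.13 (edgeR adjusted p = 5.91e-11) and YALI1_A12540g by 1.71 ± 0.10 (edgeR adjusted p = 2.83e-10). YALI1_F14136g was lower in Yl_5_3 than in Yl_5_2 by 0.96 on the log2 scale (difference -0.96 ± 0.12, edgeR adjusted p = 0.000136), with 82.8, 84.7 and 91.6 CPM in Yl_5_2 against 41.8, 54.1 and 36.9 CPM in Yl_5_3. It rose in both mutant strains, and further in Yl_5_2. For YALI1_B09117g (0.27 ± 0.12), YALI1_E36494g (0.53 ± 0.23), YALI1_D18089g (0.22 ± 0.13) and YALI1_E34586g (-0.17 ± 0.14) the direct difference was not called, with edgeR adjusted p between 0.0686 and 0.310, which does not show that the strains were alike. Other tools called that of YALI1_B09117g (DESeq2 adjusted p = 0.0314) and of YALI1_E34586g (limma adjusted p = 0.0388 on log2(FPKM + 1)).

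**Figure D3:**
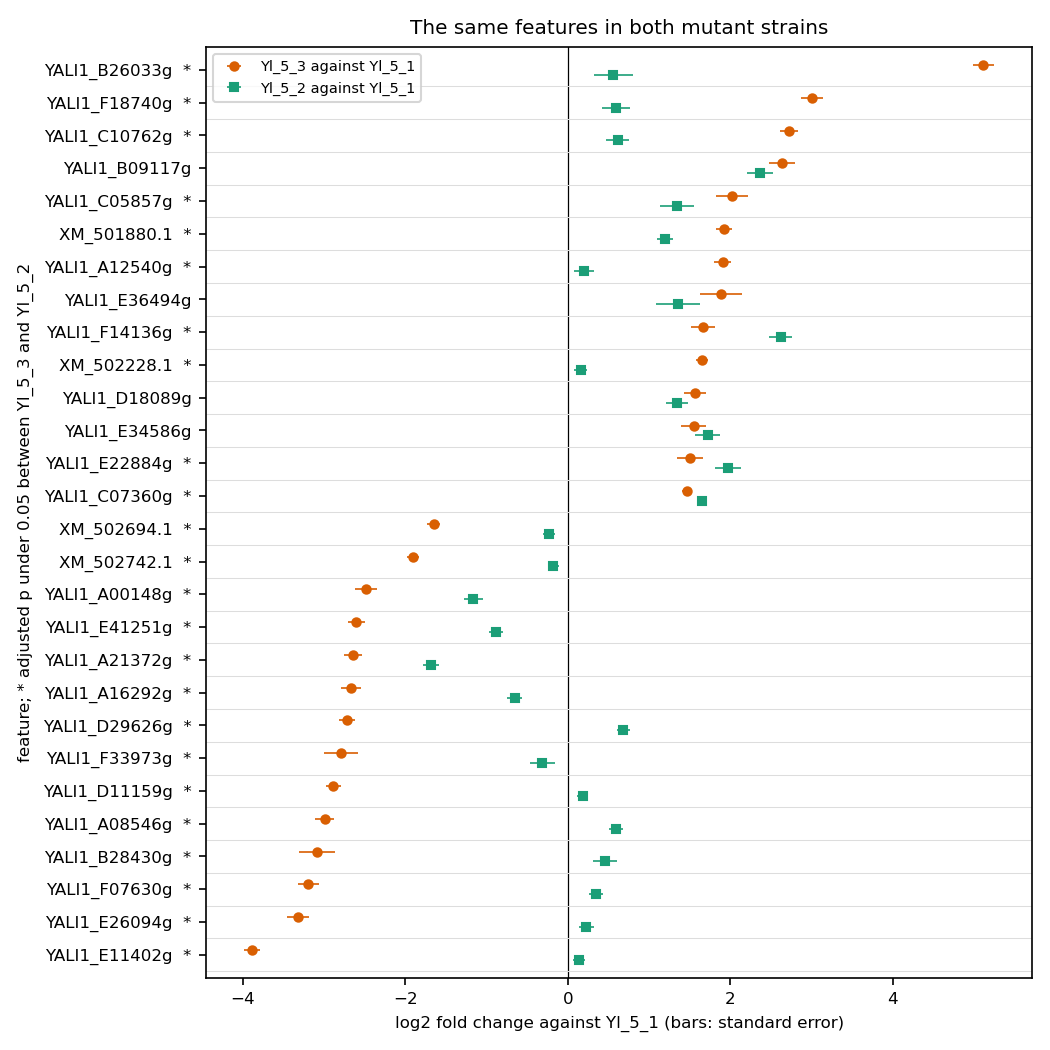
Log2 fold change against Yl_5_1 (horizontal axis, bars are standard errors) of the 28 features chosen by size of change in Yl_5_3, for Yl_5_3 (circles) and Yl_5_2 (squares). An asterisk marks an edgeR adjusted p under 0.05 between the mutant strains, which 24 of the 28 have, beside 67.4% of all features tested. The falls of Yl_5_3 reach -3.89, while Yl_5_2 lies between -1.69 and 0.68 for them.

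Direction of change was related to the level of a feature. When the 6013 features were split into 10 groups of equal size by mean FPKM (counts scaled by feature length and library total) over the 9 libraries, falls were most frequent at low to middle levels and rises at high levels. In the second lowest group, at 6.22 to 13.5 FPKM, 40.9% fell and 13.5% rose. In the highest group, above 297 FPKM, 41.5% rose and 17.4% fell. From the third to the tenth group the median log2 fold change went from -0.11 to 0.09, and the share that rose was higher in each group than in the one before it. The median standard error was 0.07 in the third group and 0.05 in the tenth, so smaller changes could be called at high levels. In the lowest group, with a median standard error of 0.17, 23.3% fell and 17.4% rose, and the median log2 fold change was -0.02. Grouping by the level in Yl_5_2, which enters neither side of the comparison, gave 39.3% falls in the second group and 40.9% rises in the tenth. When libraries were scaled by their totals alone, 46.6% fell and 9.32% rose in the second group and 30.6% rose and 22.9% fell in the tenth, so rises were still more frequent in the tenth group than in the second.

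Large falls had their highest and lowest shares in the same groups. Stringent falls made up 6.66% of the second lowest level group and 0.997% of the highest, and stringent rises were most frequent in the lowest group, with 20 of the 51. Stringent falls also differed in frequency with feature length, as derived from counts and FPKM. In the 4 groups of middle length, from 711 to 1467 bases, between 3.66% and 6.16% of features were stringent falls, and in the 2 groups of the longest features 0.666% and 0.664% were. Taking the longest 20% together, a limit chosen after the groups were seen, 8 of 1203 features were stringent falls (0.665%) and 181 of the 4810 shorter ones (3.76%). Of the long features 55.9% were called at an adjusted p under 0.05, against 55.4% of the others. Stringent falls were less frequent in long features both at or below the median level (0.993% against 4.91%) and above it (0.201% against 2.71%). These shares are descriptions, since features are not replicates.

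**Figure D4:**
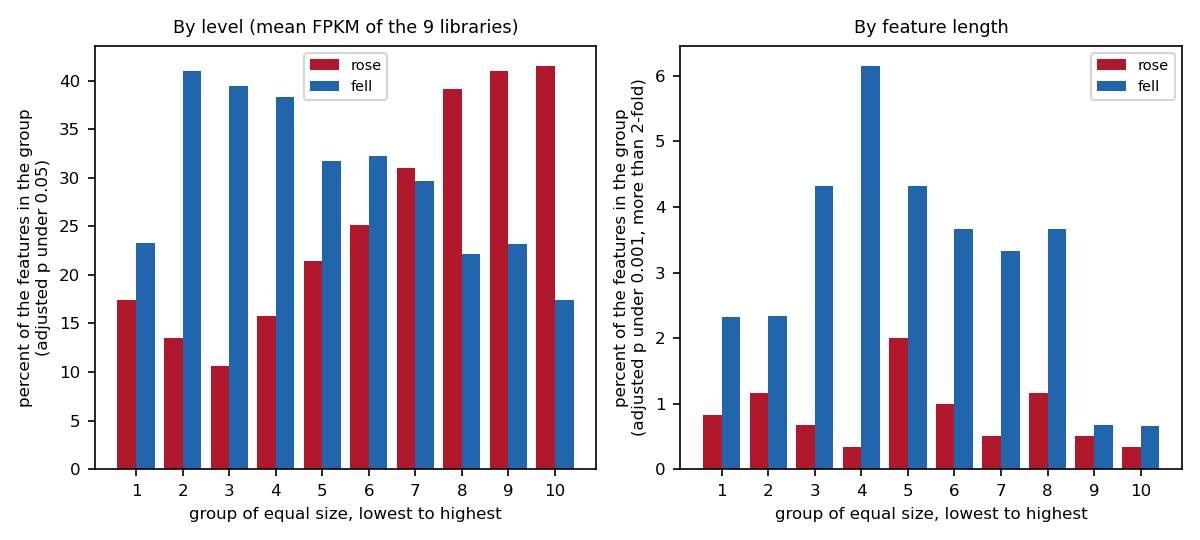
Share of features that rose (red) and fell (blue) in Yl_5_3, in percent, in 10 groups of equal size. The left panel groups them by level and counts calls at an adjusted p under 0.05, and falls go from 40.9% in group 2 to 17.4% in group 10. The right panel groups them by length and counts stringent calls, and falls go from 6.16% in group 4 to 0.664% in group 10.

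Changes were spread over all 6 chromosomes. The median log2 fold change per chromosome lay between -0.03 on chromosome A and 0.00 on chromosome E, the share of features called at an adjusted p under 0.05 between 54.4% and 57.8%, and the share of stringent features between 3.63% and 5.11%. The chromosome medians differed by less than the median standard error of a single feature, which does not measure how precise a median over many features is. The 177 features that the authors had added to the annotation under numbers of their own had 53 rises (29.9%, beside 25.6% of all features tested), 29 falls (16.4%, beside 29.7%) and a median log2 fold change of 0.10. The library kit does not mark strand, so reads of an added transcript that overlaps a gene on the other strand cannot be told apart from those of the gene.

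A few of the stringent features were neighbours. In the reference order of the 5374 features with a place there, 17 stringent falls formed 8 runs of adjacent features and 3 stringent rises formed 1 run. Adjacent means next to each other among these features, and some runs skip protein-coding reference genes outside this set. There were 4 between YALI1_A16292g and YALI1_A16422g. There was 1 between YALI1_E09884g and YALI1_E09924g, 1 between YALI1_F37463g and YALI1_F37498g, and 1 between YALI1_C29261g and YALI1_C29344g. With at least 50 counts required in every library, 10 falls and 0 rises were left in runs. Of the places next to a stringent fall, 5.10% held another, against 3.29% of all ordered features. The correlation of log2 fold changes between adjacent features was 0.07 over 5368 pairs, and 0.01 between features 10 places apart, all from the same 6 libraries.

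The longest run of falls lay on chromosome B. YALI1_B28430g had 29.9, 22.6 and 20.5 CPM in the control and 2.79, 3.27 and 2.54 CPM in Yl_5_3. Next to it lay YALI1_B28454g, the most abundant stringent fall described above, and then YALI1_B28472g, with 156, 147 and 137 CPM against 58.8, 52.1 and 56.9 CPM. The log2 fold changes in this order were -3.09, -2.17 and -1.39, and YALI1_B28349g, a few places before them, fell by 1.12 on the log2 scale. YALI1_B28394g, directly before the run, was not called (0.04 ± 0.12). In Yl_5_2 the 3 features of the run had log2 fold changes of 0.46, -0.03 and 0.03, and all 3 were lower in Yl_5_3 than in Yl_5_2, by differences of -3.55, -2.14 and -1.43 (edgeR adjusted p at most 4.65e-07).

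The run of rises lay on chromosome C. YALI1_C29261g had 10.2, 10.4 and 11 CPM in the control and 25.5, 24.8 and 22.5 CPM in Yl_5_3. YALI1_C29344g had 2.64, 2.71 and 2.15 CPM against 5.90, 7.89 and 6.44 CPM. YALI1_C29355g had 29.2, 29.8 and 34.5 CPM against 76.1, 74.2 and 64.1 CPM. The log2 fold changes were 1.21, 1.43 and 1.2, with no overlap between the strains, and each was higher in Yl_5_3 than in Yl_5_2 (direct differences 0.98, 0.60 and 1.49, edgeR adjusted p at most 0.00461). In the same stretch YALI1_C29080g fell by 2.40 on the log2 scale, so the neighbourhood did not move as a block.

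**Figure D5:**
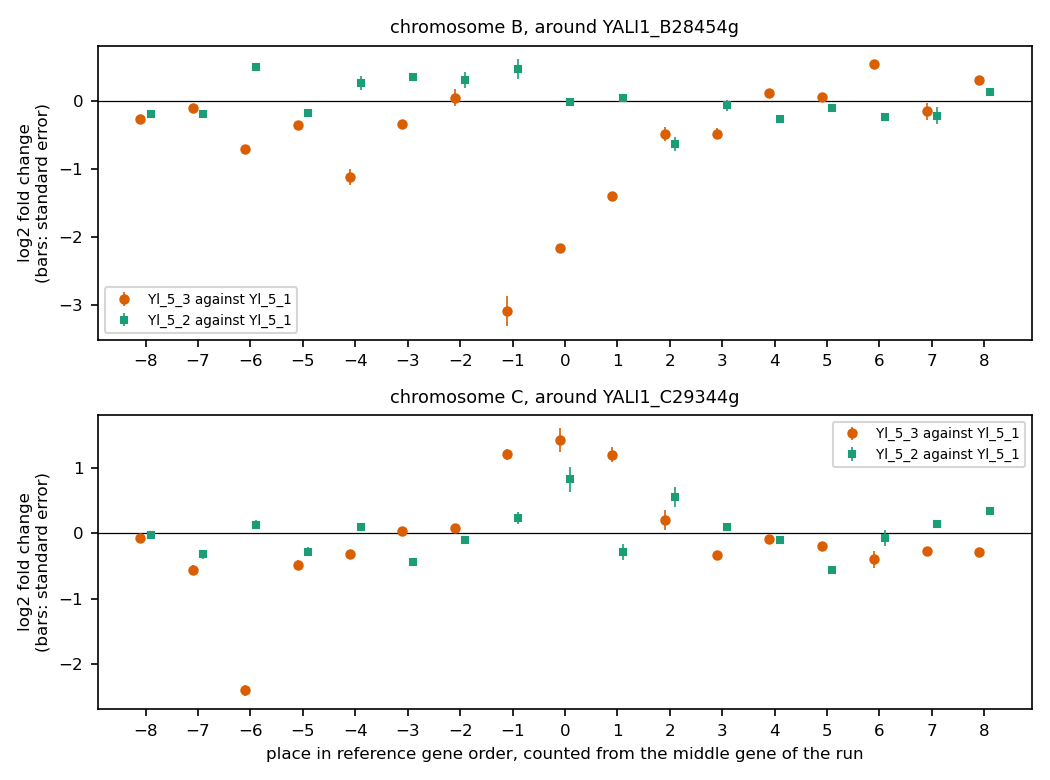
Log2 fold change against Yl_5_1 (vertical axis, bars are standard errors) of features in reference gene order around the middle feature of the run on chromosome B (above) and on chromosome C (below), for Yl_5_3 (circles) and Yl_5_2 (squares). Around YALI1_B28454g, 3 adjacent features of Yl_5_3 lie at -3.09, -2.17 and -1.39, and around YALI1_C29344g 3 lie at 1.21, 1.43 and 1.2, while the next features on either side are closer to 0.

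At the low end of the scale, 18 stringent features had a mean below 1 CPM in either strain, 12 falls and 6 rises. YALI1_D09308g had 7.71, 6.96 and 8.79 CPM in the control, 7.95, 7.05 and 6.43 CPM in Yl_5_2 and 0.547, 0.385 and 0.236 CPM in Yl_5_3, and its log2 fold change of -4.29 ± 0.22 (edgeR adjusted p = 6.42e-11) was the largest fall of all. YALI1_A09553g had 5.62, 4.94 and 3.74 CPM against 0.437, 0.241 and 0.532 CPM (-3.59 ± 0.26, edgeR adjusted p = 5.53e-09). Both were at about the control level in Yl_5_2. In the opposite direction YALI1_C22751g had 0.298, 0.319 and 0.340 CPM in the control and 2.90, 2.79 and 2.36 CPM in Yl_5_3 (3.06 ± 0.25, edgeR adjusted p = 2.79e-08), with 1.33, 0.926 and 1.11 CPM in Yl_5_2.

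The count limit left 132 features out, of which 96 had at least 10 counts in none of the 6 libraries. Just inside the limit were 19 features with 10 counts in exactly 3 libraries, 5 of them in the 3 of Yl_5_3 and 5 in the 3 of the control, and just outside were 11 with 10 counts in 2.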

How the data were processed

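RNA from 9 libraries, 3 per strain, was sequenced as paired ends after preparation with the NEBNext Ultra RNA kit. The authors deposited whole-number read counts per feature without normalization, and FPKM values of the same features, scaled by feature length and library total. The submitters' processing notes name HTSeq 0.6.1 and DESeq 1.18.0, and the aligner and the genome build are not given in the sources used here. All columns of sample values were used or assigned, with 0 left aside.

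From the deposited counts, 6037 features, those reaching 10 counts in 3 or more of the 9 libraries, were fitted with edgeR 4.0.16 under R 4.3.3, with TMM factors, 1 term per strain, robust dispersions, the quasi-likelihood F test and adjustment by Benjamini and Hochberg. All 9 libraries share 1 estimate of the spread. Calls were made at an adjusted p under 0.05, and under the stringent condition at under 0.001 with more than 2-fold. Alternatives were other scalings, DESeq2 1.42.0, other count filters, the 6 libraries alone, a replicate block, each library left out, limma 3.58.1 on log2(FPKM + 1) and log2(FPKM + 0.1), and a test against 2-fold. The edgeR and limma fits were run on simulated data in which a small part of the features changed, at least 2-fold and as many up as down. That setting differs from these data, so it does not test the small changes or the balance of rises and falls. FPKM of the authors served to group features by level and, together with the counts, to derive the length of features. All feature lengths given here are derived in that way.

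Accessions were matched to RefSeq (ASM176148v1) for 5430 of 5959 features, and 75.0% of these had the same length in both. Its coordinates were used only for order. Lists by product, protein motif and promoter motif were not applied, as no such annotation was at hand.

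Named features were the 12 largest rises and falls with a locus tag, and 2 of each by accession, among stringent features with no overlap and at least 10 CPM in a strain, and the 5 with the most reads in the control. Members, lists and rules were chosen with earlier results of these data known. Near-identical copies may share reads, and overlapping features cannot be told apart without strand.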

Additional observations from a re-analysis of the deposited data

Results flagged for a closer look

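Among the 12 largest falls described above, 6 were lower than the control in Yl_5_3 and called higher than the control in Yl_5_2. Over all features tested 27.4% rose in Yl_5_2, and over the 189 stringent falls 30.2% did. The difference itself was tested between the mutant strains, and both changes against the control share its 3 libraries. YALI1_D29626g had a log2 fold change of -2.72 in Yl_5_3 and of 0.68 in Yl_5_2, a difference of -3.40 ± 0.10 (edgeR adjusted p = 9.71e-12). For YALI1_A08546g the changes were -2.99 and 0.59 and the difference was -3.58 ± 0.11 (edgeR adjusted p = 1.18e-11). For YALI1_B28430g they were -3.09 and 0.46, with a difference of -3.55 ± 0.22 (edgeR adjusted p = 4.65e-07). YALI1_F07630g went from -3.19 to 0.35 between the strains, a difference of -3.54 ± 0.12 (edgeR adjusted p = 3.13e-10). The rises in Yl_5_2 were smaller for YALI1_E26094g, at 0.23 with a difference of -3.55 ± 0.14, and for YALI1_D11159g, at 0.18 with a difference of -3.07 ± 0.09. Against the control, the edgeR adjusted p of the rise in Yl_5_2 was 0.0404 for YALI1_E26094g, 0.0290 for YALI1_D11159g and 0.0261 for YALI1_B28430g. For YALI1_F07630g, YALI1_A08546g and YALI1_D29626g it was at most 0.00670. Libraries of Yl_5_2 and the control overlapped for YALI1_E26094g. In all 6 the third library of Yl_5_2 was the highest of that strain.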

How the results depend on the processing

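All 28 features chosen by size of change kept their direction and an adjusted p under 0.05 against the control under every alternative in which they were looked up, and 25 of them also stayed stringent. These alternatives do not include the test against 2-fold, from which only totals were taken. YALI1_E22884g left the stringent condition with the 6 libraries alone (edgeR adjusted p = 0.00181) and without replicate 1 of Yl_5_1 (0.00133). The total of called features, and that of stringent ones, stayed within 1.5 times the reported number except for the test against 2-fold (edgeR's glmTreat), under which 143 passed, 18 rises and 125 falls. Stringent rises alone went from 51 to 28 with limma on log2(FPKM + 1) and to 32 with at least 50 counts. What moved was the share of the called features that fell, 53.8% as reported: it was 48.1% with median-of-ratios size factors, 47.7% with DESeq2's Wald test, 68.2% with total counts, 67.7% with limma on log2(FPKM + 1) and 67.8% on log2(FPKM + 0.1). The share of stringent features that fell, 78.8% as reported, was 86.7% with limma on log2(FPKM + 1). With total counts the medians per chromosome, A to F, were -0.0945, -0.0785, -0.0651, -0.0792, -0.0584 and -0.0627. With at least 50 counts in every library, which tests fewer features, 10 falls and 0 rises were left in runs of neighbours. That filter also left 21 of the 28 features to test, of which 17 differed from Yl_5_2.

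Leaving out 1 library gave 2943 to 3160 called and 223 to 238 stringent features, with 53.1% to 54.9% and 76.9% to 81.1% falls. The difference of YALI1_E22884g from Yl_5_2 was no longer called without replicate 1 of Yl_5_3 (-0.43, edgeR adjusted p = 0.0862) or without replicate 3 (-0.37, edgeR adjusted p = 0.0720), against -0.47 with all libraries. The difference of YALI1_B09117g was called without replicate 3 of Yl_5_3 (0.35, edgeR adjusted p = 0.0222) and with DESeq2 (0.29, adjusted p = 0.0314), and that of YALI1_E34586g without replicate 2 (-0.33, edgeR adjusted p = 0.00864) and with limma on both FPKM scales (-0.31, adjusted p = 0.0388 and 0.0389).

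No pairing by replicate number was seen: the correlation of same-numbered deviations between Yl_5_1 and Yl_5_3 was -0.04, 0.06 and 0.05. Not every library correlated best with its own number. Deviations from a strain mean are tied to each other, so these correlations cannot exclude a pairing. A replicate block gave 3262 called and 240 stringent features, 237 of them shared with the fit without it, with 54.0% and 79.2% falls. With the block YALI1_E36494g (edgeR adjusted p = 0.00761) and YALI1_D18089g (0.00107) were no longer stringent. Lists by product, protein motif and promoter motif were not run. Alternatives for the neighbours, lengths, levels and the difference from Yl_5_2 were chosen after seeing the data.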

Other observations

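Features of 1107 bases were frequent among the stringent rises, a pattern noticed after the values were seen and therefore given without a test. Of the 15 features of this length, 5 were stringent rises and 0 stringent falls, which is 33.3%, against 46 of 5998 features of other lengths, or 0.767%. No other length held more than 2 stringent rises. The 5 are YALI1_F18740g, YALI1_C10762g, YALI1_A12540g, YALI1_E19036g and YALI1_C20054g, which lie on chromosomes F, C, A, E and C, were at 0.983 to 5.69 CPM in the control, and rose by 3.0, 2.72, 1.91, 1.88 and 1.07 on the log2 scale. All 5 were also higher than in Yl_5_2, where their log2 fold changes against the control were 0.60, 0.61, 0.20, 0.61 and 0.06. The largest rise, YALI1_B26033g, has 1116 bases, and YALI1_E36494g has 1113. Whether these features have similar sequences and share reads was not tested.

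The other 10 features of 1107 bases had no stringent call. YALI1_E17326g, at 988, 963 and 940 CPM in the control and 1542, 1596 and 1709 CPM in Yl_5_3, rose by 0.75 ± 0.05 on the log2 scale (edgeR adjusted p = 1.77e-09), and YALI1_D32013g fell by 0.51 (edgeR adjusted p = 4.05e-05).

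A few features outside the count limit had most of their reads in a single library. XM_501857.1 had 362 counts in the second control library, 0 and 3 in the other control libraries and 9, 12 and 0 in those of Yl_5_3, XM_500118.1 had 217 in the third library of Yl_5_3 and 0 in the others of that strain, and XM_500563.1 had 232 in the first library of Yl_5_3 and 8 and 5 in the others.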
